A study of Mus musculus with 6 samples.

Results

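Arteries and veins are lined by ECs that express different genes, and 9 genes of arterial and venous identity were followed here in peritoneal ECs of mice given peritoneal dialysis (PD) fluid. The genes were chosen by name as textbook markers, with earlier results of these data known. Efnb2, Gja4, Gja5, Bmx, Unc5b, Sema3g and Cxcr4 stand for the arterial side, and Ephb4 and Nr2f2 for the venous side. They are 9 of the 22183 genes in the deposited table. PD mice received Dianeal PD fluid by daily intraperitoneal injection for 6 weeks and saline mice received saline on the same schedule, with 3 mice in each group and a separate library for each mouse. All 6 animals were wild-type (WT) male C57BL/6J mice, 8 to 10 weeks old by the study's methods, and no other allele or agent is given. The cells came from the mesentery. The sample labels describe magnetic sorting of CD31+ cells, whereas the supplementary methods describe fluorescence-activated sorting of CD31+ CD45- cells.

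Arterial and venous ECs keep their identity through opposing programmes. Notch signalling and SOXF transcription factors maintain the arterial state, and the nuclear receptor COUP-TFII, encoded by Nr2f2, represses Notch signalling in veins. The transmembrane ligand ephrin-B2 (Efnb2) on arterial ECs and its receptor EphB4 (Ephb4) on venous ECs signal to each other across cell contacts and keep the vessel types apart. Connexins 37 and 40 (Gja4 and Gja5) form the gap junctions that couple arterial ECs.

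Counts per mouse ran from 21973426 to 26374292, and the members together took 0.0098% to 0.0198% of them. Levels are given as CPM, the count scaled to the library total, after TMM scaling, which assumes that most genes do not differ between libraries. Pan-endothelial transcripts were present in every library, where 12 markers summed to about 1140 CPM in each saline mouse and 1790 to 1870 CPM in PD mice. Of these markers 11 were higher in PD mice and Pecam1, which encodes CD31, was not called. Markers of other cells moved as well. Leukocyte markers, including Ptprc which encodes CD45, summed to 9020 to 9510 CPM in saline mice and 7200 to 7320 CPM in PD mice (1 of 6 higher and 5 of 6 lower), above the endothelial sum in both groups. The lists hold different genes and CPM is not corrected for length, so sums of different lists do not compare amounts of cells. Summed macrophage markers were at 2080 to 2200 CPM and 8520 to 9200 CPM (7 of 7 higher), and B cell markers at 5350 to 5650 CPM and 2490 to 2530 CPM (6 of 6 lower). T cell markers were at 1330 to 1410 CPM and 1110 to 1220 CPM (3 of 6 lower). Lymphatic endothelial markers were at 227 to 248 CPM and 1040 to 1180 CPM (7 of 7 higher), and mural cell markers at 289 to 312 CPM and 452 to 503 CPM (8 of 9 higher). Fibroblast markers were at 89.4 to 95.9 CPM and 828 to 863 CPM (7 of 7 higher), and mesothelial markers at 14.1 to 17.9 CPM and 156 to 180 CPM (7 of 7 higher). Pancreatic acinar markers were at 2.23 to 5.81 CPM in saline mice and 6890 to 7770 CPM in PD mice (8 of 8 higher). No gene of these lists was at 0 in all mice, and their part in the results below was not tested. In bulk RNA, fewer cells of a type and less RNA per cell cannot be told apart. The members are therefore also given relative to the 12 pan-endothelial markers.

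Under TMM scaling 8 of the 9 members were higher in PD mice and none was lower, whereas relative to the endothelial markers 1 was higher and 4 were lower, in a comparison that called 8.28% of all genes higher and 72.3% lower. Calls were made by edgeR's quasi-likelihood test, with p-values adjusted by the Benjamini-Hochberg method over the 14005 genes tested and a threshold of 0.05. Such calls were common under TMM scaling, with 58.9% of all genes called, 31.1% higher and 27.8% lower. The median log2 fold change was 0.79 for the members and 0.017 for all genes tested. Of the members, 4 (Efnb2, Ephb4, Unc5b and Sema3g) were both called and changed by 2-fold or more, as were 17.2% of all genes. The groups did not overlap in CPM for the same 8 genes, against 34% of all genes that were higher without overlap. All 9 members passed the filter on low counts, and 8 of them had at least 10 counts in each of the 6 mice. Unc5b, the exception, passed only with the help of its higher counts in PD mice. Its call, its 2-fold change and its lack of overlap are therefore no support for the counts of members above.

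**Figure D1:**
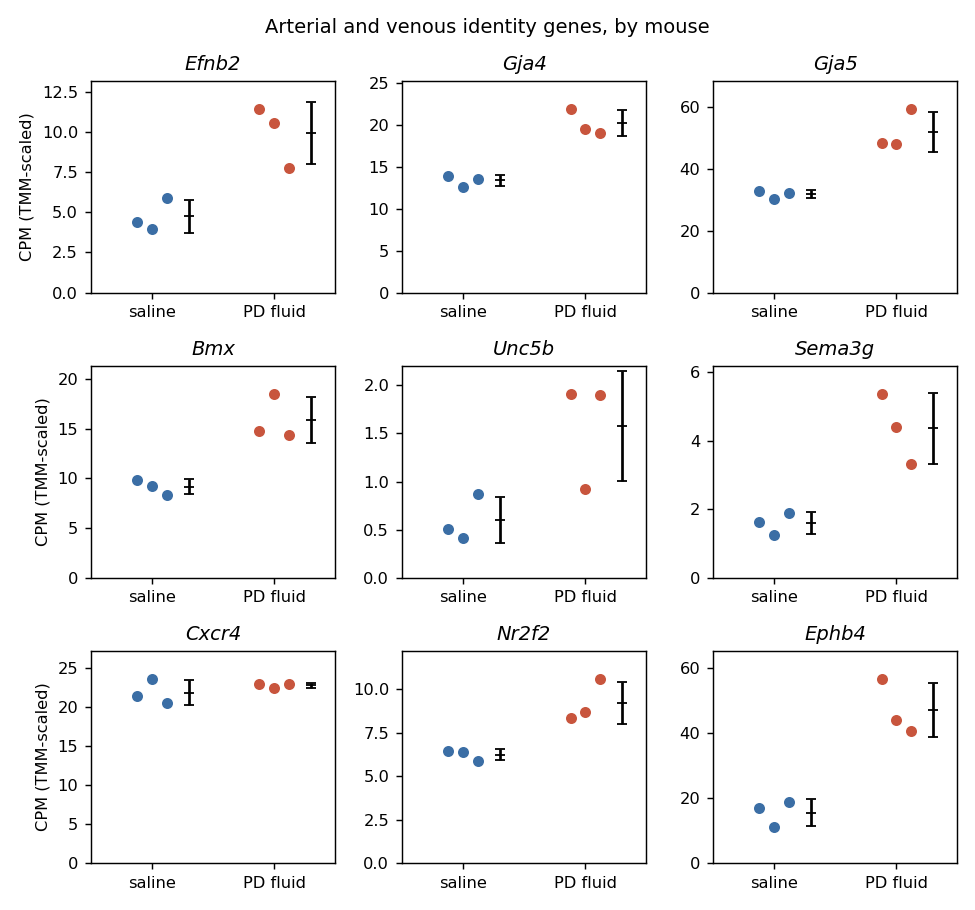
TMM-scaled CPM of each member in each mouse, with 3 saline mice and 3 PD mice per panel, points for mice and bars for the mean ± SD. Every PD mouse lies above every saline mouse for 8 of the 9 genes and for Cxcr4 the groups overlap, whereas relative to 12 endothelial markers Nr2f2, Gja4, Gja5 and Cxcr4 are lower in PD mice.

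The sequences upstream of Efnb2, Ephb4, Nr2f2 and Gja5 are shown because these genes form the ligand and receptor pair, the venous regulator and the most highly expressed connexin of the set. Each is the 250 bases before the RefSeq gene start on GRCm38.p6, read 5′ to 3′ on the strand of the gene. For Gja5 this start lies inside the gene span of GENCODE M21, which begins at 96904693, so the annotations place the start differently. The windows are chr8:8661243-8661492 on the minus strand for Efnb2, chr5:137349859-137350108 on the plus strand for Ephb4, chr7:70366747-70366996 on the minus strand for Nr2f2 and chr3:97032152-97032401 on the plus strand for Gja5. Capitals mark matches to the motifs searched on both strands: the GC box GGGCGG, the CCAAT box, TATAAA, the RBPJ core TGGGAA through which Notch acts, the SOX core ACAAAG, the nuclear receptor half-site AGGTCA, the E-box CACGTG and the GATA core AGATAA.
Efnb2: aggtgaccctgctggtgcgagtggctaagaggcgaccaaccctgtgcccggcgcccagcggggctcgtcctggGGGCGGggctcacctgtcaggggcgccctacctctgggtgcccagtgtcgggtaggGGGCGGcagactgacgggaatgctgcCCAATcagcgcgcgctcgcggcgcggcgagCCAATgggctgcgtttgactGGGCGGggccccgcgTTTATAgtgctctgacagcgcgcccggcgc
Ephb4: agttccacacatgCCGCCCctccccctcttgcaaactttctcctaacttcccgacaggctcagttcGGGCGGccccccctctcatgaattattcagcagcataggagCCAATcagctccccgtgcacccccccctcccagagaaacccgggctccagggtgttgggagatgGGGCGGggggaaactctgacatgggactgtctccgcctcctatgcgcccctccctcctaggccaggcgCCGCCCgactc
Nr2f2: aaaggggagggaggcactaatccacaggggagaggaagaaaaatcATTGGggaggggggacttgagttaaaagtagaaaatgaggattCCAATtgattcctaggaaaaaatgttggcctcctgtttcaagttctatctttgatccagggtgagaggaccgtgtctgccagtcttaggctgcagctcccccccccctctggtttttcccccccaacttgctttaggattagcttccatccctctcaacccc
Gja5: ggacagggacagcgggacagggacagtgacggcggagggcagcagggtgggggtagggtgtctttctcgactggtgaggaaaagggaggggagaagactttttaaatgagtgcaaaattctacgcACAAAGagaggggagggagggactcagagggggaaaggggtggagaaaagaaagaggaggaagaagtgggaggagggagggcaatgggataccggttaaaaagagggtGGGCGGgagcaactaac
Efnb2 held 3 GC boxes, 2 CCAAT boxes and a TATA match 30 bases before the start, and 72% of its 250 bases were G or C. Ephb4 held 4 GC boxes and 1 CCAAT box at a GC content of 64%. Nr2f2 held 2 CCAAT boxes and no GC box at 50% GC, and Gja5 held 1 GC box and 1 SOX core at 56.4% GC. The median GC content of all 32851 promoter windows was 52.4%.

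RefSeq windows were matched for 9 of 9 members. GC boxes occurred in 7 of the 9, in all but Nr2f2 and Bmx, and in 32.7% of all windows. The CCAAT box occurred in 3 members and 33.8% of windows, the SOX core in 2 members (Gja5 and Bmx) and 16.5%, and the TATA match in 2 members (Efnb2 and Cxcr4) and 12.4%. The RBPJ core was found in Bmx alone among the members and in 21.6% of all windows. AGGTCA (14% of windows), CACGTG (6%) and AGATAA (10%) were found in no member, which says only that these letters are not in these windows.

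Efnb2, the arterial ligand ephrin-B2, is ENSMUSG00000001300 on chromosome 8 (8617434 to 8661242, GRCm38, GENCODE M21). Its level was 4.37, 3.97 and 5.88 CPM in the 3 saline mice and 11.4, 10.5 and 7.75 CPM in the 3 PD mice. All PD mice lay above all saline mice, and the third PD mouse was the lowest of its group. The mean rose from 4.74 ± 1.01 CPM (SD, n = 3) to 9.91 ± 1.92 CPM (SD, n = 3), a log2 fold change of 1.06 (SE 0.20, edgeR adjusted p = 0.000959).

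Ephb4, the venous receptor for ephrin-B2, is ENSMUSG00000029710 on chromosome 5 (137350109 to 137378669). Its level was 16.8, 10.9 and 18.8 CPM in saline mice and 56.6, 43.9 and 40.6 CPM in PD mice. Every PD mouse was above every saline mouse. The mean rose from 15.5 ± 4.07 CPM (SD, n = 3) to 47.0 ± 8.45 CPM (SD, n = 3), with a log2 fold change of 1.60 (SE 0.18, edgeR adjusted p = 3.05e-05). Exons of Zan lie on the opposite strand of Ephb4, and Zan had at most 7 counts in any mouse.

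The level of the ligand relative to the receptor was compared within each mouse. The log2 ratio of Efnb2 to Ephb4 CPM was -1.93, -1.46 and -1.67 in saline mice and -2.30, -2.06 and -2.39 in PD mice. The ratio was lower in every PD mouse than in any saline mouse, by a mean of -0.56 on the log2 scale. The scaling factor of a library cancels in this ratio, but trends with GC content do not (58.4% of Ephb4 and 50.4% of Efnb2 transcript bases are G or C). After correction for GC content and length the ratio was -2.01, -1.74 and -1.69 in saline mice and -2.06, -1.93 and -2.33 in PD mice. The groups then overlapped, with a difference of -0.29. No model was fitted to this ratio, and an exact permutation test of 3 mice against 3 cannot go below p = 0.1. From FPKM values, which divide by transcript length, the difference was -0.49.

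Nr2f2, the venous transcription factor COUP-TFII, is ENSMUSG00000030551 on chromosome 7 (70351944 to 70366735). It was at 6.44, 6.36 and 5.88 CPM in saline mice and 8.35, 8.68 and 10.6 CPM in PD mice. The groups did not overlap, and the saline mice were close together. The mean rose from 6.23 ± 0.305 CPM (SD, n = 3) to 9.21 ± 1.22 CPM (SD, n = 3), a log2 fold change of 0.56 (SE 0.15, edgeR adjusted p = 0.00785). If the libraries did not mark strand, the counts of Nr2f2 may include reads from B130024G19Rik. Exons of that gene overlap on the opposite strand, and it has no row in the table used here. The closest relative of Nr2f2, Nr2f1, had at most 1 count in any mouse and was not tested. Lymphatic, fibroblast and mesothelial markers, given above, rose in the same mice, and their part in the level of Nr2f2 was not tested.

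The log2 ratio of Efnb2 to Nr2f2 CPM, an arterial against a venous gene, was -0.56, -0.68 and 0.00 in saline mice and 0.45, 0.28 and -0.45 in PD mice. The third PD mouse fell within the range of the saline mice, so the groups overlapped. For Gja5 to Nr2f2 the log2 ratio of CPM was 2.35, 2.25 and 2.46 in saline mice and 2.53, 2.47 and 2.49 in PD mice. These values did not overlap, with a difference of 0.14 by counts, but the difference was -0.002 by FPKM and -0.021 with GC content and length corrected, where the groups overlapped.

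Gja4, the arterial and capillary gap junction protein connexin 37, is ENSMUSG00000050234 on chromosome 4 (127311421 to 127314039). It was at 14.0, 12.6 and 13.6 CPM in saline mice and 22.0, 19.5 and 19.1 CPM in PD mice. All PD mice were higher. The mean rose from 13.4 ± 0.690 CPM (SD, n = 3) to 20.2 ± 1.55 CPM (SD, n = 3), a change that was in the other direction relative to the endothelial markers. The log2 fold change was 0.59 (SE 0.11, edgeR adjusted p = 0.000868), and it was 0.33 after correction for GC content and length (edgeR adjusted p = 0.00973). Its transcripts have a GC content of 58.8%, against a median of 49.6% over all tested genes.

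Gja5, the arterial connexin 40, is ENSMUSG00000057123 on chromosome 3 (96904693 to 97077416). It was at 32.9, 30.4 and 32.3 CPM in saline mice and 48.4, 48.2 and 59.6 CPM in PD mice. The saline mice differed little, and the third PD mouse was the highest. The mean rose from 31.9 ± 1.28 CPM (SD, n = 3) to 52.1 ± 6.50 CPM (SD, n = 3), a log2 fold change of 0.71 (SE 0.10, edgeR adjusted p = 0.000127). Exons of Gpr89 lie on the opposite strand of Gja5, with 606 to 759 counts per mouse and a log2 fold change of -0.006 (edgeR adjusted p = 0.963). If the libraries did not mark strand, the counts and FPKM of Gja5 may include reads from Gpr89. The log2 ratio of Gja4 to Gja5 CPM was -1.23, -1.27 and -1.25 in saline mice and -1.14, -1.30 and -1.64 in PD mice, so the groups overlapped.

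Bmx, a non-receptor tyrosine kinase of the Tec family found in arterial endothelium, is ENSMUSG00000031377 on chromosome X (164192842 to 164258193). It was at 9.88, 9.22 and 8.36 CPM in saline mice and 14.8, 18.5 and 14.4 CPM in PD mice. The groups did not overlap and the second PD mouse was the highest. The mean rose from 9.16 ± 0.760 CPM (SD, n = 3) to 15.9 ± 2.30 CPM (SD, n = 3), a log2 fold change of 0.79 (SE 0.14, edgeR adjusted p = 0.000618).

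Unc5b, a netrin receptor of arterial and sprouting ECs, is ENSMUSG00000020099 on chromosome 10 (60762593 to 60831581). It had the lowest counts of the members, with 13, 9 and 21 in saline mice and 52, 22 and 42 in PD mice. In CPM these were 0.508, 0.415 and 0.870, against 1.91, 0.923 and 1.90. The second PD mouse lay only just above the highest saline mouse. The log2 fold change was 1.39 (SE 0.42, edgeR adjusted p = 0.0155), and the call was lost without saline mouse 1 (log2 fold change 1.28, edgeR adjusted p = 0.0567), PD mouse 1 (1.22, edgeR adjusted p = 0.0659) or PD mouse 3 (1.25, edgeR adjusted p = 0.0562). After correction for GC content and length the log2 fold change was 0.89 (edgeR adjusted p = 0.0749).

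Sema3g, a secreted semaphorin of arterial ECs, is ENSMUSG00000021904 on chromosome 14 (31217860 to 31230352). It was at 1.64, 1.25 and 1.91 CPM in saline mice (42, 27 and 46 counts) and 5.37, 4.40 and 3.31 CPM in PD mice (146, 105 and 73 counts). All PD mice were higher. Its mean was 1.60 ± 0.332 CPM (SD, n = 3) in saline mice and 4.36 ± 1.03 CPM (SD, n = 3) in PD mice, a log2 fold change of 1.45 (SE 0.26, edgeR adjusted p = 0.000744).

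Cxcr4, the receptor for the chemokine CXCL12, marks arterial and tip ECs and is also abundant on leukocytes. It is ENSMUSG00000045382 on chromosome 1 (128588199 to 128592293). Its level was 21.4, 23.6 and 20.6 CPM in saline mice and 23.0, 22.4 and 22.9 CPM in PD mice. The groups overlapped, and the log2 fold change was 0.06 (SE 0.10, edgeR adjusted p = 0.613). With GC content and length corrected it was 0.22 (edgeR adjusted p = 0.0452). The leukocyte markers that fell in the same mice were given above, and their part in the level of Cxcr4 was not tested.

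Between genes, levels were compared in FPKM, the authors' length-normalised unit. In saline mice the order was Cxcr4 (12.961 ± 0.938 FPKM, SD, n = 3), Gja5 (10.687 ± 0.687), Gja4 (7.924 ± 0.465), Ephb4 (3.712 ± 1.018), Bmx (3.045 ± 0.234), Nr2f2 (1.962 ± 0.168), Efnb2 (0.986 ± 0.217), Sema3g (0.351 ± 0.075) and Unc5b (0.106 ± 0.049). Ephb4 and Bmx overlapped and every other pair of neighbours was separate. In PD mice Gja5 came first at 17.261 ± 2.634 FPKM (SD, n = 3), ahead of Cxcr4 (13.829 ± 0.483), Gja4 (12.039 ± 1.241) and Ephb4 (11.423 ± 2.387). Gja4 overlapped with Cxcr4 and with Ephb4, and the other neighbours in the PD order were separate. Bmx followed at 5.304 ± 0.787 FPKM, then Nr2f2 at 3.166 ± 0.422, Efnb2 at 2.185 ± 0.389, Sema3g at 0.968 ± 0.254 and Unc5b at 0.298 ± 0.088. The arterial connexins were above both venous genes in saline mice, whereas in PD mice Gja4 overlapped with Ephb4. Ephb4 was above its ligand Efnb2 in both groups.

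Relative to the 12 pan-endothelial markers the picture differed. This scaling lowers the median log2 fold change of all genes from 0.017 to -0.96, since the markers themselves had a median log2 fold change of 0.98 with a range of 0.13 (Pecam1) to 1.65 (Tie1). On this scale 1 member was higher, 4 were lower and 4 were not called, against 8.28% of all genes higher, 72.3% lower and 80.5% called either way. Of the 12 markers themselves, 3 were higher, 3 were lower and 6 were not called on this scale. Log2 fold changes of the markers there ran from -0.85 (Pecam1) to 0.68 (Tie1). With GC content and length corrected as well, 1 member was higher and 3 were lower, against 9.15% of all genes higher, 71.7% lower and 80.8% either way. The median log2 fold change of the members was -0.18. Of the members' TMM-scaled log2 fold changes, 8 lay within the range of the 12 markers, and 4 were above the markers' median.

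Ephb4 was the member that was higher on this scale. Its marker-scaled level was 22.9, 16.2 and 25.7 CPM in saline mice and 38.9, 31.4 and 29.9 CPM in PD mice. The groups did not overlap, and the log2 fold change was 0.63 (SE 0.15, edgeR adjusted p = 0.000953). The call held with each mouse left out in turn (log2 fold change 0.46 to 0.77) and with each marker left out in turn (0.55 to 0.69), and with GC content and length corrected the log2 fold change was 0.34 (edgeR adjusted p = 0.00658).

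Efnb2 was not called on the marker scale, at 5.97, 5.88 and 8.04 CPM in saline mice and 7.86, 7.53 and 5.70 CPM in PD mice. The groups overlapped, with the third PD mouse the lowest of all 6 mice and the third saline mouse the highest. The log2 fold change was 0.085 (SE 0.19, edgeR adjusted p = 0.687), and without PD mouse 1 it was -0.004. Unc5b (log2 fold change 0.42, SE 0.43, edgeR adjusted p = 0.369), Sema3g (0.47, SE 0.26, edgeR adjusted p = 0.107) and Bmx (-0.18, SE 0.15, edgeR adjusted p = 0.269) overlapped between the groups as well. Bmx was on the other side of 0 with GC content and length corrected, at 0.061 (edgeR adjusted p = 0.681).

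Cxcr4 and Gja4 were lower on the marker scale. Cxcr4 was at 29.2, 35.0 and 28.2 marker-scaled CPM in saline mice and 15.8, 16.0 and 16.9 in PD mice, with a log2 fold change of -0.92 (SE 0.12, edgeR adjusted p = 1.14e-06). Gja4 was at 19.1, 18.7 and 18.6 in saline mice and 15.1, 14.0 and 14.0 in PD mice, with a log2 fold change of -0.39 (SE 0.12, edgeR adjusted p = 0.00713). Both groups of values were separate for each gene, and both calls held with each mouse left out (-0.98 to -0.82 for Cxcr4 and -0.43 to -0.37 for Gja4). With GC content and length corrected the log2 fold changes were -0.60 for Cxcr4 (edgeR adjusted p = 1.57e-05) and -0.49 for Gja4 (edgeR adjusted p = 0.000325).

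Nr2f2 and Gja5 were also lower on the marker scale, but these calls depended on single mice and markers. Nr2f2 was at 8.80, 9.43 and 8.04 marker-scaled CPM in saline mice and 5.74, 6.21 and 7.80 in PD mice, a log2 fold change of -0.41 (SE 0.17, edgeR adjusted p = 0.035). Gja5 was at 44.9, 45.1 and 44.2 in saline mice and 33.3, 34.5 and 43.8 in PD mice, a log2 fold change of -0.27 (SE 0.12, edgeR adjusted p = 0.0419). The groups were separate, although PD mouse 3 came close to the saline mice for both genes. Nr2f2 was not called without saline mouse 1 (log2 fold change -0.41), saline mouse 2 (-0.36), PD mouse 1 (-0.32) or PD mouse 2 (-0.37), at edgeR adjusted p of 0.072, 0.0779, 0.141 and 0.111. Gja5 was not called without saline mouse 1, 2 or 3 or PD mouse 1 or 2 (edgeR adjusted p of 0.0934, 0.0512, 0.0666, 0.165 and 0.175), and both calls were lost without the marker Tie1, Flt1 or Robo4. With GC content and length corrected as well, Nr2f2 was at -0.28 (edgeR adjusted p = 0.106) and Gja5 at -0.29 (edgeR adjusted p = 0.0147).

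**Figure D2:**
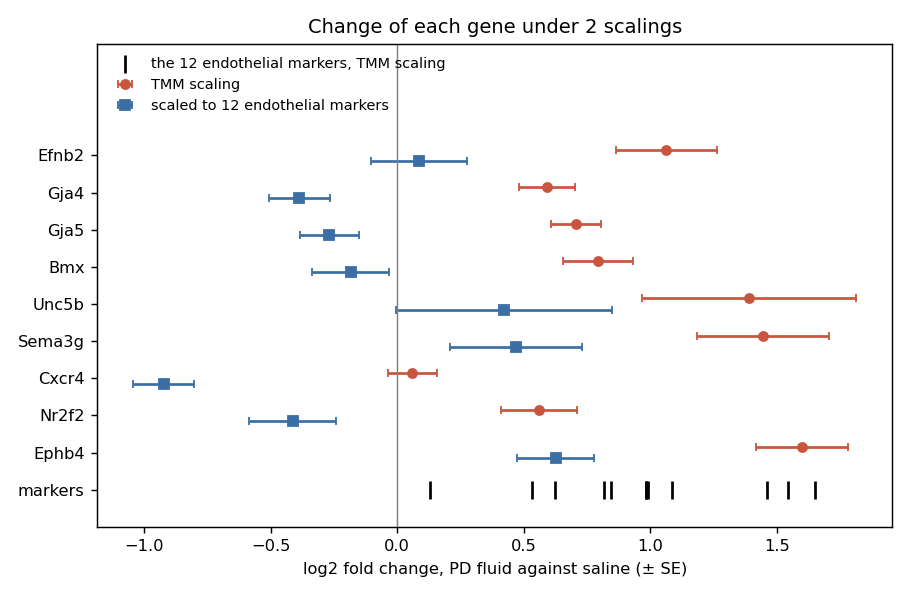
Log2 fold change of PD against saline mice (n = 3 each) with its standard error for the 9 members, under TMM scaling and relative to 12 pan-endothelial markers, with the TMM-scaled values of the 12 markers as ticks. Under TMM scaling 8 genes are called higher, whereas relative to the markers Ephb4 is higher, Cxcr4, Gja4, Nr2f2 and Gja5 are lower, and the other 4 are not called.

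**Figure D3:**
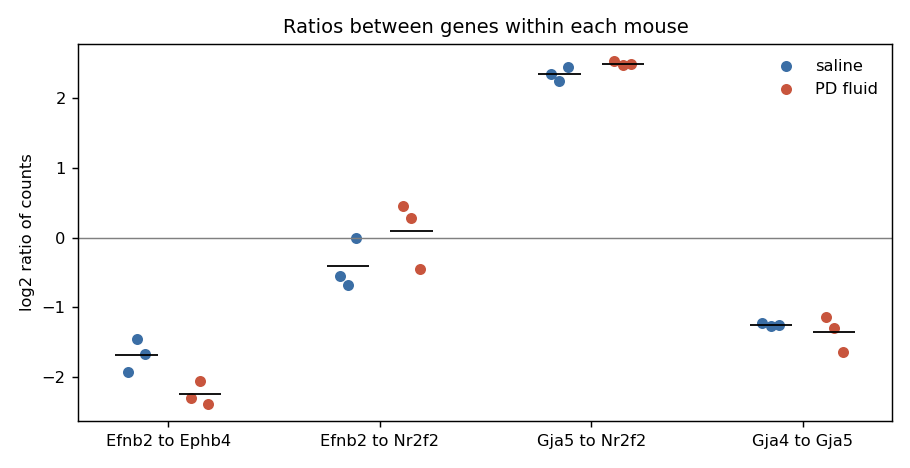
Log2 ratios between pairs of members in each mouse, without correction for GC content, with points for mice and bars for the mean of 3. The Efnb2 to Ephb4 ratio is lower in every PD mouse (-2.39 to -2.06) than in the saline mice (-1.93 to -1.46), and the Efnb2 to Nr2f2 and Gja4 to Gja5 ratios overlap, whereas with GC content and length corrected all 4 ratios overlap between the groups.

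Further genes of arterial, venous and capillary identity were listed by name, with earlier results of these data known. Markers of macrophage, lymphatic, fibroblast, mural and mesothelial cells were mostly higher in the same mice, and their part in these lists was not tested. Among all genes tested 31.1% were higher and 27.8% lower under TMM scaling. Of 21 other arterial genes, all tested, 19 were higher in PD mice and none was lower under TMM scaling (median log2 fold change 1.19, against 0.017 for all genes). They included Ltbp4, a TGF-beta-binding matrix protein (log2 fold change 1.99, SE 0.29, edgeR adjusted p = 0.000182), Igfbp3, an insulin-like growth factor binding protein (1.90, SE 0.09, edgeR adjusted p = 3.36e-08), and the Notch receptor gene Notch4 (1.59, SE 0.21, edgeR adjusted p = 7.14e-05). Dkk2 and the Notch ligand gene Jag1 were not called, with log2 fold changes of 0.58 and 0.084. Relative to the endothelial markers 7 arterial genes were higher, among them Ltbp4 (1.02), Igfbp3 (0.92) and Notch4 (0.60), 3 were lower (Jag1, Fbln5 and Edn1, named after their values were seen) and the median was 0.20, against -0.96 for all genes.

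Of 14 other venous genes 13 were tested, 12 were higher and none was lower under TMM scaling, with a median log2 fold change of 1.32. Over all genes 31.1% were higher and 27.8% lower. Sele, which encodes the leukocyte adhesion molecule E-selectin, rose from 4.53, 4.57 and 5.01 CPM to 42.5, 37.6 and 36.3 CPM (log2 fold change 3.04, SE 0.11, edgeR adjusted p = 4.24e-09). Bst1 (log2 fold change 2.21, SE 0.13, edgeR adjusted p = 1.66e-07) and Flt4, the VEGF-C receptor gene that is also on the lymphatic list (2.11, SE 0.19, edgeR adjusted p = 5.27e-06), followed. The apelin receptor gene Aplnr was not called at -0.18. On the marker scale 7 venous genes were higher, among them Sele (log2 fold change 2.06, edgeR adjusted p = 4.29e-10), Bst1 (1.24) and Flt4 (1.14), and 1 was lower, Aplnr (-1.15, edgeR adjusted p = 2.37e-08), with a median of 0.34.

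Under TMM scaling 31.1% of all genes were higher. All 12 capillary genes were higher under TMM scaling in the edgeR test, with Tcf15 at an adjusted p of 0.0485, and 11 were called with the replicate block, DESeq2, limma-voom, RLE factors, no filter or the GC correction. The median log2 fold change was 0.71, and the named genes were Lpl, the lipoprotein lipase gene (1.38), Plvap, which encodes a protein of fenestral diaphragms (1.02), and Gpihbp1, whose product holds lipoprotein lipase at the capillary wall (0.94). Relative to the endothelial markers 1 capillary gene was higher, Lpl (0.40), 6 were lower and the median was -0.27. Plvap (0.043) and Gpihbp1 (-0.040) were not called there. The counts of the identity lists were thus 7 of 21 arterial, 7 of 13 venous and 1 of 12 capillary genes higher on that scale, where 8.28% of all genes were higher and 72.3% lower, and the differences between the lists were not tested.

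**Figure D4:**
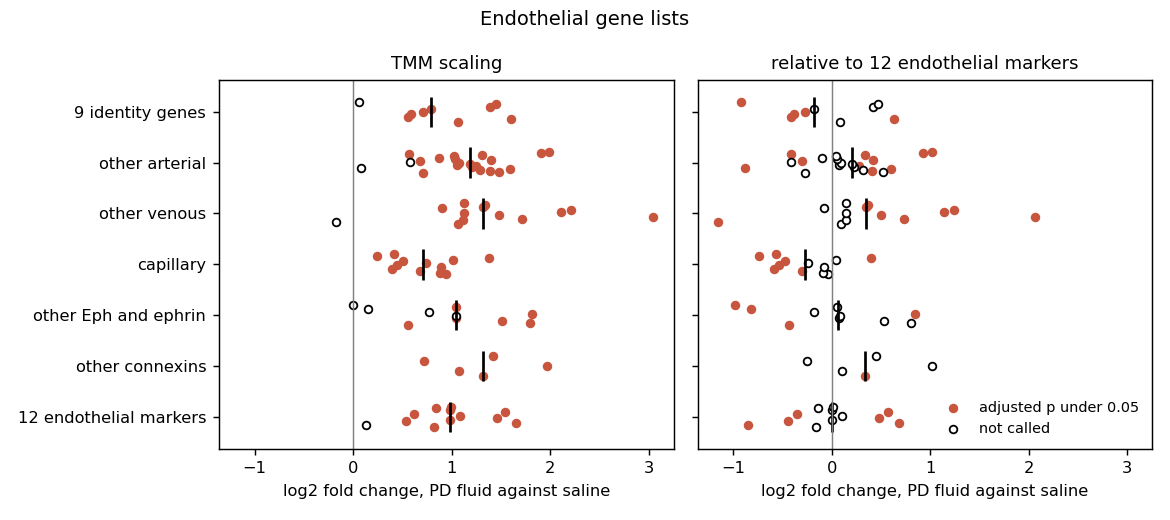
Log2 fold changes of PD against saline mice for the members and for the gene lists named in the text under TMM scaling and relative to 12 pan-endothelial markers, with a point for each gene (filled where adjusted p is under 0.05) and a bar at the median, leaving out Gjb1, which had no count in saline mice. The medians of the arterial and venous lists are 1.19 and 1.32 under TMM scaling and 0.20 and 0.34 relative to the markers, and the capillary median goes from 0.71 to -0.27.

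Other ephrins and Eph receptors were mostly low. Of 20 listed genes 10 were tested, and 6 were higher and none was lower under TMM scaling, with a median log2 fold change of 1.04. Over all genes 31.1% were higher and 27.8% lower. The receptor gene Epha2 (log2 fold change 1.81) and the ligand genes Efna2 (1.79) and Efna5 (1.51) changed most. Efna2 had 5, 17 and 8 counts in saline mice and 52, 26 and 32 in PD mice. It passed the filter on low counts only through the PD mice, so its call is no support for the list. Efnb1, the ephrin-B gene closest in role to Efnb2, was at 10.7, 9.68 and 14.7 CPM in saline mice and 27.6, 23.9 and 20.9 CPM in PD mice (log2 fold change 1.05). In FPKM it was above Efnb2 in both groups, at 3.575 and 7.457 on average. Efna1 was the highest ephrin shown here in FPKM, at 22.87 and 33.776. Ephb2 was not tested, with 0, 0 and 1 counts in saline mice and 7, 0 and 10 in PD mice. Relative to the endothelial markers 1 gene of this family was higher (Epha2) and 3 were lower (Efna1, Epha4 and Ephb6, named after their values were seen), whereas Efna2 (0.81), Efna5 (0.53) and Efnb1 (0.071) were not called. On that scale 8.28% of all genes were higher and 72.3% lower.

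Of 18 other connexin genes 6 were tested and all 6 were called higher under TMM scaling, of which Gjb1 had no count in saline mice. The share of all genes called higher was 31.1%. Gja1, which encodes the widely expressed connexin 43, rose from 21.9, 30.7 and 29.2 CPM to 63.6, 68.6 and 71.2 CPM (log2 fold change 1.31, edgeR adjusted p = 4.69e-06). In FPKM Gja1 had a mean of 9.029 in saline mice, where it overlapped with Gja4 and was below Gja5, and in PD mice it was above both at 23.22. Gjb5 and Gjb2 had log2 fold changes of 1.97 and 1.07. With 4, 2 and 17 counts in saline mice and 23, 23 and 45 in PD mice, Gjb5 passed the filter only through the PD mice. Its call is no support for the list. On the marker scale Gja1 was higher (log2 fold change 0.33, edgeR adjusted p = 0.029), and Gjb5 (1.02) and Gjb2 (0.099) were not called. Gjb1, named after its values were seen, had 0 counts in every saline mouse and 19, 16 and 15 counts in PD mice. It passed the filter only through the PD mice, so its call on either scale is no support for the list.

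Ligands and co-receptors of the members were also followed. Of 17 listed genes 16 were tested, and 13 were higher and none was lower under TMM scaling, with a median log2 fold change of 1.30. Over all genes 31.1% were higher and 27.8% lower. Cxcl12, the ligand of Cxcr4, was at 22.4, 17.0 and 20.2 CPM in saline mice and 56.2, 48.3 and 43.7 CPM in PD mice (log2 fold change 1.31, edgeR adjusted p = 7.03e-06). Ackr3, the other CXCL12 receptor gene, was higher by a log2 fold change of 1.29. Both were higher on the marker scale too, Cxcl12 by 0.34 (edgeR adjusted p = 0.0134) and Ackr3 by 0.31 (edgeR adjusted p = 0.0132), the scale on which Cxcr4 was lower.

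Among netrin and UNC5B partners, Ntn1 was higher under TMM scaling (log2 fold change 1.69) and Ntn4 was not called (0.74, edgeR adjusted p = 0.194). Robo4, an endothelial receptor that binds UNC5B and is also 1 of the 12 markers, had a log2 fold change of 1.54. For semaphorin receptors, the log2 fold changes were 1.05 for Nrp1, 1.06 for Nrp2, 1.28 for Plxnd1, 1.72 for Plxna1 and 2.37 for Plxna4 under TMM scaling. Nrp1 was the most abundant of them in the FPKM values given here, at 26.696 in saline mice and 55.722 in PD mice. On the marker scale 8 of the 16 partners were higher, among them Plxna4 (1.39), Plxna1 (0.74) and Ntn1 (0.71), and 1 was lower, Plxna3, named after its values were seen. The shares of all genes there were 8.28% higher and 72.3% lower. The 8 include Robo4 (0.57), which helps set this scale, so its call there is no support for the list. Nrp1 (0.071), Nrp2 (0.093), Plxnd1 (0.30) and Ntn4 (-0.21) were not called on that scale.

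Close relatives of Unc5b, Sema3g, Bmx and Nr2f2 did not all move alike. Of 16 listed genes 12 were tested, 8 were higher and 3 were lower under TMM scaling, against 31.1% and 27.8% of all genes. The class 3 semaphorin genes Sema3c (log2 fold change 2.55) and Sema3f (2.18) and the netrin receptor gene Unc5a (2.17) had the largest changes. Unc5a had 20, 7 and 50 counts in saline mice and passed the filter only with the help of the PD mice. Its call is no support for the list. On the marker scale 4 relatives were higher, among them Sema3c (1.57), Sema3f (1.20) and Unc5a (1.19), and 4 were lower. The shares of all genes there were 8.28% higher and 72.3% lower. The 3 genes that were lower under TMM scaling were Tec (-0.66), Btk (-0.65) and Txk (-0.32), leukocyte kinases of the same family as Bmx. These 3 kinases were also lower on the marker scale, whereas Bmx was higher under TMM scaling and not called on the marker scale. The B cell and leukocyte markers that fell in the same mice were given above, and their part was not tested.

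The genes whose log2(CPM + 1) followed Efnb2 most closely over the 6 libraries were Cdr2l, Fgfrl1 and Aatk (Pearson's r = 0.998 each). Those most like Nr2f2 were Adora1 (r = 0.999), Fez2 (0.998) and H13 (0.996). These are descriptions over libraries that fall into 2 treatment groups, and of 13996 genes compared, 2000 had an r above 0.9 with Efnb2 and 1742 with Nr2f2.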

How the data were processed

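RNA sequencing libraries from the peritoneal ECs of 3 saline and 3 PD mice were made from poly(A) RNA with a kit that is not stated to mark strand. The authors deposited 1 table of 22183 genes with raw counts and FPKM values per mouse. The submitters' processing notes name fastp 0.18.0, Bowtie2 2.2.8, HISAT2, StringTie and RSEM without a role. The genome build and annotation are not given in the sources used here, and the deposited counts may be rounded RSEM estimates. Columns of the authors' comparison (group means, fold change, p-value and FDR) were not used, and 0 sample columns were left unmatched.

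Samples were grouped by the treatment in the labels. Whether replicate mice were handled together is not stated, so p-values measure the spread between these 6 libraries. Counts were filtered with filterByExpr (14005 genes kept), normalised with TMM, and PD mice were compared with saline mice in the quasi-likelihood framework of edgeR 4.0.16 (R 4.3.3), without covariates, at an adjusted p of 0.05 after Benjamini-Hochberg adjustment over all 14005 genes. The paper's methods name limma. Standard errors came from the quasi-likelihood F statistic. The code was tested on simulated data. FPKM values, as the authors computed them, served only to order levels between genes and to check ratios. Positions were looked up by Ensembl identifier on GRCm38. Sequences are from RefSeq. A listed gene withheld from the text is not reported here.

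Members and lists were chosen with earlier results of these data known. From each further list, up to 3 genes with the largest change among those called, averaging 10 counts or more and without overlapping groups, were named, besides named partners of the members. Alternatives were DESeq2 1.42.0, limma-voom (limma 3.58.1), RLE factors, no filter, the replicate block, scaling to the geometric mean of 12 pan-endothelial markers, a 2-fold minimum and leaving out each mouse. Corrections for GC content and length, the leaving out of single mice and markers under marker scaling, the replicate block under marker scaling, the GC-corrected ratios, and both scalings together were chosen after seeing the data. Tables and figures were made with Python 3.11.15, pandas 2.3.3, numpy 2.4.6 and matplotlib 3.10.9.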

Additional observations from a re-analysis of the deposited data

How the results depend on the processing

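Without the marker scaling, Efnb2, Ephb4, Nr2f2, Gja4, Gja5, Bmx and Sema3g kept their calls under 12 alternatives (the replicate block, DESeq2, limma-voom, RLE factors, no filter, the GC and length correction and leaving out each mouse), but not all of them with a 2-fold minimum. Scaling to the 12 endothelial markers left 5 members called (1 higher, 4 lower), 10 arterial, 7 capillary and 2 connexin genes. The log2 fold changes were 0.085 for Efnb2, 0.42 for Unc5b, 0.47 for Sema3g, -0.41 for Nr2f2, -0.39 for Gja4, -0.27 for Gja5, -0.18 for Bmx and -0.92 for Cxcr4. With GC content and length corrected as well, 4 members were called (1 higher, 3 lower), 9 arterial genes, 2 connexins and 7 relatives. The values were then 0.072 for Efnb2, -0.28 for Nr2f2, -0.49 for Gja4, -0.29 for Gja5, 0.061 for Bmx, 0.069 for Unc5b, 0.28 for Sema3g and -0.60 for Cxcr4. The correction alone gave 0.89 for Unc5b and 0.22 for Cxcr4. A 2-fold minimum left 2410 genes and 4 members (Efnb2, Ephb4, Unc5b and Sema3g), so that Nr2f2, Gja4, Gja5 and Bmx were lost. Leaving out each mouse gave 6996 to 8018 genes and 7 to 8 members higher, with Unc5b at 1.20 to 1.75, and on the marker scale 2 to 4 members lower, with Efnb2 at -0.004 without PD mouse 1 and up to 0.249. Leaving out each marker also gave 2 to 4. The order of levels changed for 2 genes in saline mouse 2 or PD mouse 1 alone, and the Gja5 to Nr2f2 difference was -0.002 by FPKM. With GC content and length corrected it was -0.021, and the Efnb2 to Ephb4 difference was -0.288, both with overlapping groups. The cause of these changes was not tested.

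Deviations from the group mean correlated at 0.19, 0.067 and -0.27 between same-numbered mice. Between differently numbered mice the correlations ran from -0.41 to 0.36. With 3 mice in each group these values cannot settle whether the numbers pair the mice. The replicate block gave 7909 called genes against 8246 and changed no member's call under TMM scaling or on the marker scale. DESeq2 called 8018 genes, limma-voom 8329 and edgeR without a filter 8450. The 9 to 21 counts per saline mouse limit what can be said of Unc5b.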
